A study of Mus musculus with 12 samples.

Results

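The uterus in estrus is compared here with the uterus in proestrus, the stage that precedes it in the estrous cycle of the mouse. The comparison rests on 6 of the 12 uteri of the series, chosen by their stage label: 3 labelled proestrus (replicates 1, 2 and 3) and 3 labelled estrus (replicates 3, 4 and 5). All 6 were whole uteri of wild-type Swiss Webster females, an outbred stock, aged 8 to 12 weeks, with no transgene or engineered allele named in the labels. The labels did not say how an animal was staged, at what hour it was dissected or in which batch its library was made. They also did not say that each sample was a separate animal, so p-values measure only the spread between these samples, which may be technical. Below, a uterus is named by its stage and replicate number (estrus 4 is estrus replicate 4).

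In proestrus the ovarian follicles ripen and secrete estradiol, which acts on the uterus through the estrogen receptor and drives division of the luminal epithelium, fluid accumulation and blood flow. A surge of gonadotropin then triggers ovulation, so that estrus follows the peak of estradiol and precedes the rise of progesterone from the new corpora lutea. The series addressed how uterine transcripts follow this cycle, and the step from proestrus to estrus covers the hours after the estradiol peak.

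Transcripts were counted with 3' TagSeq, which reads polyadenylated RNA near its 3' end. Levels are given as CPM, the counts scaled to a common library total, with an adjustment for composition. They are always listed in replicate order, and a mean is given with its SD (n = 3). A log2 fold change is estrus minus proestrus, with its SE, from edgeR's quasi-likelihood model, and adjusted p-values are Benjamini-Hochberg values of that model over all genes tested. A gene is said to have risen, fallen or changed where its adjusted p was under 0.05. The 6 libraries held between 1741801 and 2200563 estimated counts, and the floor used for genes without counts, 3 counts in a library, was worth 1.37 to 1.86 CPM. For a gene at or under that floor in any library, the size of its change is uncertain. Correlations of log2 CPM across genes were 0.953 to 0.957 within proestrus, 0.95 to 0.956 within estrus and 0.875 to 0.904 between the stages. Because whole tissue was measured, more cells of a type and more RNA per cell cannot be told apart.

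The libraries held the RNA of a uterus: Epcam, an epithelial surface protein, was at 383, 425 and 361 CPM in proestrus and 316, 454 and 418 CPM in estrus. Acta2, the actin of smooth muscle, was at 2919, 2908 and 3833 CPM in proestrus and 3133, 2291 and 2632 CPM in estrus. Neither of these markers differed between the stages at the threshold (adjusted p = 0.966 and 0.384). Markers of tissues that adjoin the uterus were also counted. The 15 ovary markers summed to 55.3 to 77 CPM in proestrus and 29.3 to 42.3 CPM in estrus, with 4 of them at 0 in all 6 libraries. A large part of that sum was 1 gene that fell, Foxl2 (adjusted p = 0.00383). It was at 49.6, 55 and 30.4 CPM in proestrus and 14.2, 18.9 and 13.7 CPM in estrus. The 16 oviduct and ciliated cell markers summed to 17.7 to 34.5 CPM in proestrus and 50.8 to 62.5 CPM in estrus. Only Ovgp1 of the oviduct list, the oviduct glycoprotein, passed the filter on low counts. The oviduct sum was higher in every estrus library than in any proestrus library, and its part in the results was not tested. The 14 adipocyte markers summed to 818 to 917 CPM in proestrus and 740 to 1045 CPM in estrus, and the 8 mesothelium markers to 283 to 374 CPM in proestrus and 228 to 345 CPM in estrus. The 48 genes of cornified and squamous epithelium summed to 817 to 1091 CPM in proestrus and 3353 to 3773 CPM in estrus, with no overlap between the stages and 13 of them at 0 in all 6 libraries, and their part in the results was not tested. Lymphocyte markers summed to 129 to 372 CPM in proestrus and 279 to 2572 CPM in estrus, and estrus 5 alone lay far above the other libraries.

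Of 12052 genes tested, 2064 (17.1%) differed between the stages: 1165 (9.67%) were higher in estrus and 899 (7.46%) were lower. These 3 percentages are the background against which each gene group below is read. Among the called genes, 697 were at least 2-fold higher and 385 at least 2-fold lower in estrus. Samples of the stages did not overlap for 1157 of the genes that rose and 895 of those that fell. The share over all tested genes was not counted. A call itself favours genes with separate samples, so separation describes a called gene and adds no support to its call. A gene expressed in 1 stage alone passes the filter on low counts through that stage, so that counts and medians of gene groups with many untested members describe only those that passed. For comparison with the medians of gene groups below, that of every gene tested was 0.02 (log2). The number of calls fell to 1100 when proestrus 3 was left out, to 1217 for estrus 4, 1227 for proestrus 1 and 1233 for estrus 5. It was 1270 with counts rebuilt from the deposited TPM values. Of the 1100 genes called in the absence of proestrus 3, 1058 were among the 2064 and changed the same way.

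**Figure D1:**
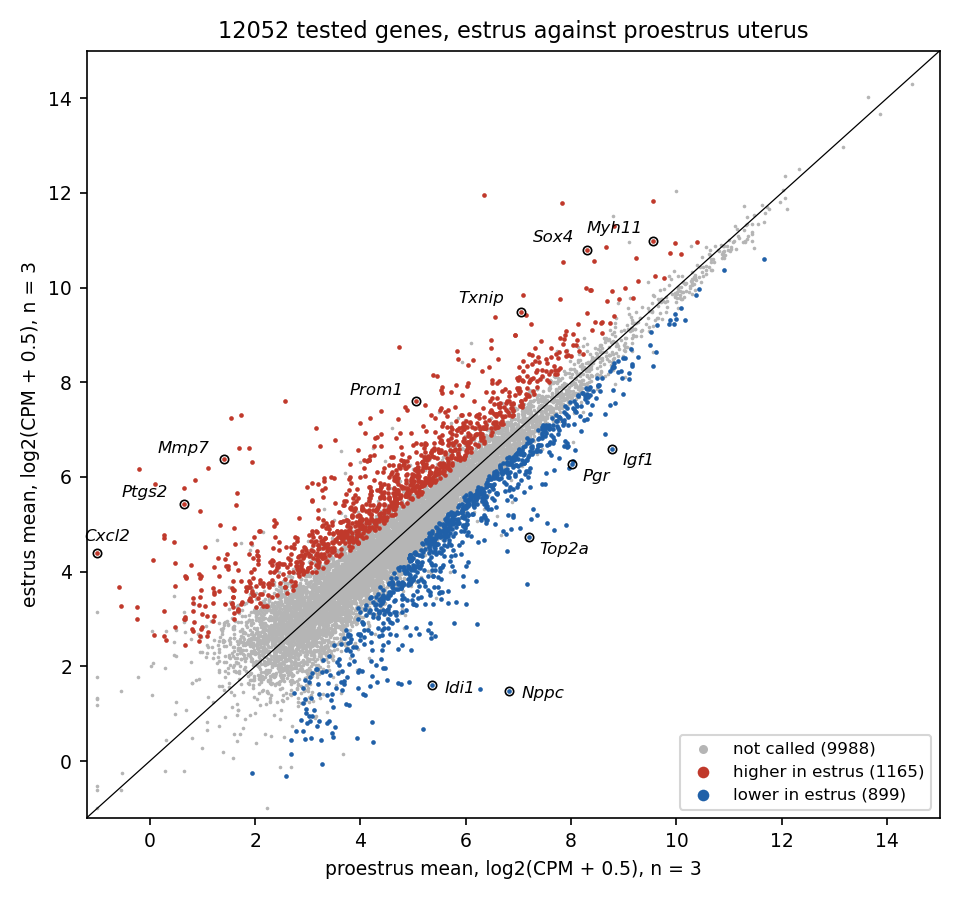
Mean level of each tested gene in proestrus (x axis) and estrus (y axis), both as log2(CPM + 0.5) over 3 uteri, with genes called higher in estrus in red, lower in blue and the rest in grey; the line marks equal levels. The red genes reach farther from the line than the blue ones at low proestrus levels, where Cxcl2, Ptgs2 and Mmp7 lie, and Nppc and Idi1 lie well below it. A gene at a low proestrus level cannot lie far below the line, so the axes fix that difference.

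The receptors and enzymes that set the uterus's response to steroids are described first. Pgr, the progesterone receptor and itself a target of estradiol (ENSMUSG00000031870, chromosome 9, 8899833 to 8968611), was at 271, 221 and 282 CPM in proestrus and 77.9, 71.5 and 81.1 CPM in estrus. All 3 estrus samples lay far below all 3 proestrus samples, a 3.35-fold fall (log2 fold change -1.75 ± 0.28, adjusted p = 0.00154). Esr1, the estrogen receptor alpha, was at 322, 292 and 263 CPM in proestrus and 207, 254 and 242 CPM in estrus and did not pass the test (adjusted p = 0.179). The 2 enzymes described here that inactivate steroids went opposite ways. Hsd11b2, which converts active glucocorticoid to its inactive form, was at 278, 227 and 215 CPM in proestrus and 54.4, 12 and 27.5 CPM in estrus (log2 fold change -2.95 ± 0.59, adjusted p = 0.00501). Hsd17b2, which oxidises estradiol to estrone, was at 0, 4.31 and 1.52 CPM in proestrus and 11.8, 22.3 and 22.9 CPM in estrus (log2 fold change 3.24 ± 0.72, adjusted p = 0.0106). The call for Hsd17b2 was lost in the absence of proestrus 3 (adjusted p = 0.0537). The co-chaperone Fkbp4, which helps fold steroid receptors, fell (log2 fold change -0.85 ± 0.18, adjusted p = 0.00561).

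Nppc and Igf1, which encode secreted factors, fell. Nppc, which encodes C-type natriuretic peptide (ENSMUSG00000026241, chromosome 1, 86666291 to 86670571), was at 137, 80.9 and 116 CPM in proestrus and 3.71, 1.72 and 1.37 CPM in estrus. All estrus samples lay far below all proestrus samples, and the fall was 49.7-fold (log2 fold change -5.64 ± 0.76, adjusted p = 0.000547). Estrus 4 and estrus 5 were at the floor of 3 counts, so the size of the fall is uncertain. Ptpn5, a tyrosine phosphatase, showed the same separation with 77.6, 64.7 and 88.3 CPM in proestrus and 2.47, 2.29 and 2.29 CPM in estrus (log2 fold change -5.00 ± 0.91, adjusted p = 0.00321). Of 23 tested genes of natriuretic peptides and cyclic nucleotide signalling, 4 rose and 3 fell, and the number that rose was 2 when estrus 3 was left out, 2 for estrus 5, 1 for proestrus 1 and 2 for proestrus 2. Among the receptors of this peptide family, Npr1, the guanylyl cyclase receptor for atrial natriuretic peptide, was higher in every estrus sample with 12.5, 16.2 and 18.8 CPM in proestrus and 33.4, 36.6 and 50.8 CPM in estrus (log2 fold change 1.35 ± 0.31, adjusted p = 0.0113). That call was lost in the absence of estrus 5 (adjusted p = 0.0615) or of proestrus 1 (0.0519). Pde5a, the enzyme that degrades cyclic GMP, rose from 51.9 ± 3.69 to 222 ± 48.7 CPM (log2 fold change 2.10 ± 0.27, adjusted p = 0.000466). Igf1, the growth factor that the stroma secretes under estradiol, was at 423, 311 and 579 CPM in proestrus and 118, 82.9 and 88.8 CPM in estrus (log2 fold change -2.18 ± 0.40, adjusted p = 0.00335), while its receptor Igf1r was at 56.5, 58.2 and 66.5 CPM in proestrus and 203, 244 and 186 CPM in estrus (log2 fold change 1.80 ± 0.23, adjusted p = 0.000434). Ligand and receptor thus moved in opposite directions, and both sets of samples were fully separated. The Igf1 call was lost, at a log2 fold change of -1.06, when counts were rebuilt from the deposited TPM values (adjusted p = 0.128). Further members of the insulin family response rose, the adaptor Irs2 (log2 fold change 2.53 ± 0.48, adjusted p = 0.00395) and the scavenging receptor Igf2r (log2 fold change 1.14 ± 0.19, adjusted p = 0.00193).

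Genes of DNA replication were lower in estrus. Of 39 such genes tested, 23 fell (59%, against 7.46% of all genes), the median log2 fold change of the group was -1.25, and 1 member had a value above 0. Mcm3, a subunit of the replicative helicase (ENSMUSG00000041859, chromosome 1, 20802968 to 20820312), was at 33.1, 32.9 and 36 CPM in proestrus and 5.57, 5.72 and 6.41 CPM in estrus (log2 fold change -2.51 ± 0.23, adjusted p = 6.74e-05). Dut, which removes dUTP from the nucleotide pool, was at 71.9, 58.8 and 86.3 CPM in proestrus and 11.8, 11.4 and 16.9 CPM in estrus (log2 fold change -2.41 ± 0.31, adjusted p = 0.000453). Both genes were at least 3 times lower in each estrus uterus than in any proestrus uterus. Orc6, of the origin recognition complex, fell from 27.1 ± 3.18 to 10.2 ± 2.43 CPM, and Mcm5, another helicase subunit, from 36.8 ± 3.76 to 9.49 ± 1.15 CPM. Pcna, the sliding clamp, and Tyms, which makes thymidylate, also fell (-1.28 ± 0.18 and -1.50 ± 0.25, log2). The 31-base words of Pcna, Tyms and Orc6 transcripts are shared in part with other genes (23.3% with Pcna-ps2, 10.7% with Tyms-ps and 6.97% with Vps35), so that their levels are uncertain.

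Mitosis genes were lower too: of 45 tested 26 fell (57.8%), 0 had a log2 fold change above 0 and the median was -2.04. Ccnb2, cyclin B2, which drives entry into mitosis, was at 21.7, 15.6 and 25.9 CPM in proestrus and 5.57, 5.15 and 4.12 CPM in estrus (log2 fold change -2.09 ± 0.44, adjusted p = 0.00671). Top2a, the topoisomerase that untangles sister chromatids (ENSMUSG00000020914, chromosome 11, 98992943 to 99024189), was at 152, 106 and 183 CPM in proestrus and 24.1, 24 and 29.8 CPM in estrus (log2 fold change -2.49 ± 0.59, adjusted p = 0.0116). Proestrus 2 was the lowest of its stage for both genes and still lay well above every estrus sample. Mad2l1, of the spindle checkpoint, fell from 40.8 ± 8.26 to 9.43 ± 2.95 CPM (log2 fold change -2.08 ± 0.38, adjusted p = 0.00332). Mki67, the usual marker of cycling cells, was at 99.8, 65.8 and 122 CPM in proestrus and 41.4, 34.9 and 30.2 CPM in estrus and did not pass the test (adjusted p = 0.127). Although the direction was shared, the count depended on single libraries: it was 12 when estrus 3 was left out, 6 for estrus 4, 7 for estrus 5, 9 for proestrus 1 and 6 for proestrus 3. In the model of the 6 samples alone it was 40.

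Promoters of 2 of these genes are shown because a short element is common to many of them. The cell cycle homology region, TTTGAA on either strand, was present within 250 bases before to 50 bases after a transcription start in 32 of the 40 mitosis genes with an entry in the RefSeq promoter table (80%). It was present in 20.2% of all 27025 genes in that table and in 17 of the 22 mitosis genes that fell and had an entry (77.3%). Over all genes it was present in 16.7% of those higher in estrus and 18.4% of those lower. The sequences below are from RefSeq on GRCm38.p6, 5' to 3' on the gene's strand, from 250 bases before to 30 bases after the start, with the element in capitals. Ccnb2 lies at chr9:70421525-70421804, minus strand, and Top2a at chr11:99024160-99024439, minus strand.
Ccnb2: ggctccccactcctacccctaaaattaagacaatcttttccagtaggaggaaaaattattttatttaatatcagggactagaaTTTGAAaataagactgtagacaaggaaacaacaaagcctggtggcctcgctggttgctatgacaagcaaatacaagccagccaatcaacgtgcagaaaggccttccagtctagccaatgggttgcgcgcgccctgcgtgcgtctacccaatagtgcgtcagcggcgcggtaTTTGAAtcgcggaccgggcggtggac
Top2a: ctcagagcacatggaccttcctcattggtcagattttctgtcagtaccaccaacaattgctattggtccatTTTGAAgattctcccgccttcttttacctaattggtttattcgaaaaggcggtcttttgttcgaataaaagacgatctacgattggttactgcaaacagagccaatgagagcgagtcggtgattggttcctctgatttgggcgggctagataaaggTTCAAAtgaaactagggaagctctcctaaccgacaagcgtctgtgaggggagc
Each of these promoters holds the element at 2 places. The Top2a copy nearer the start is on the opposite strand and reads as its reverse complement. A match describes the letters alone and is not evidence of binding. Other elements were searched too, and promoters with them are not shown. The E2F element was in 28.6% of DNA replication genes with an entry (1.8% of all genes). The ER stress element was in 23.8% of reticulum folding genes (0.137%). The hypoxia element was in 27.8% of hypoxia-inducible genes (3.67%) and AP-1 in 20.7% of matrix protease genes (5.95%). The estrogen response element was in 0 of 25 estrogen-responsive genes (0.074%).

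Regulators of entry into the cell cycle were split. Ccnd1, cyclin D1, was at 143, 132 and 138 CPM in proestrus and 59.4, 36.6 and 56.3 CPM in estrus (log2 fold change -1.43 ± 0.22, adjusted p = 0.00113), and its levels are uncertain because it shares 22.3% with LTO1 (31-base words). The inhibitor Cdkn1b (p27) was at 52.5, 60.9 and 41.1 CPM in proestrus and 104, 85.8 and 92.5 CPM in estrus (log2 fold change 0.87 ± 0.16, adjusted p = 0.00332), and Cdkn1a (p21) rose from 30.9 ± 1.55 to 57.2 ± 10.5 CPM (log2 fold change 0.89 ± 0.19, adjusted p = 0.00751). Btg1, an antiproliferative factor, rose as well (log2 fold change 0.88 ± 0.17, adjusted p = 0.00463). In this group of 25 tested genes, 6 rose and 4 fell, and the number that rose was 3 when estrus 4 was left out, 3 for estrus 5, 3 for proestrus 1 and 3 for proestrus 3.

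**Figure D2:**
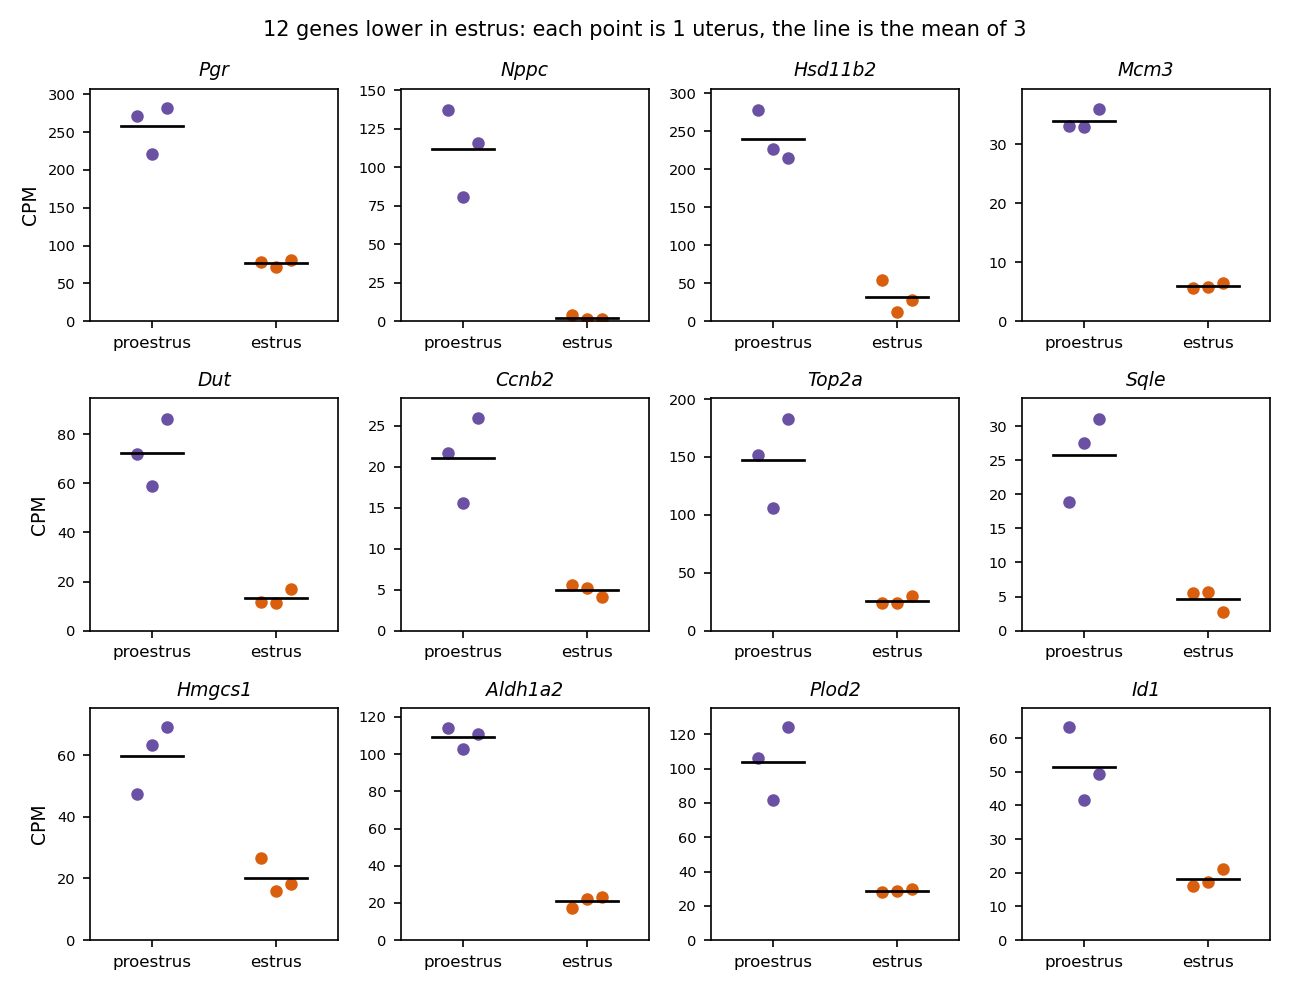
Level in CPM (y axis, linear from 0) of 12 genes in each uterus of the 2 stages (x axis), with a line at the mean of 3. In every panel the 3 estrus points lie below the 3 proestrus points, for example 71.5 to 81.1 CPM against 221 to 282 CPM for Pgr.

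The machinery that builds ribosomes was lower in estrus, while ribosomal protein genes showed smaller values. Of 36 ribosome biogenesis genes 19 fell (52.8%, median -0.70). Nop58, a core protein of the particles that methylate ribosomal RNA, was at 275, 276 and 318 CPM in proestrus and 131, 119 and 123 CPM in estrus (log2 fold change -1.22 ± 0.15, adjusted p = 0.000362), and Ddx21, a nucleolar helicase, fell from 162 ± 2.41 to 93.5 ± 5.77 CPM (log2 fold change -0.79 ± 0.15, adjusted p = 0.00416). Umps, which completes pyrimidine synthesis, was at 59.9, 48.5 and 55.8 CPM in proestrus and 21, 17.7 and 20.6 CPM in estrus (log2 fold change -1.46 ± 0.19, adjusted p = 0.000445). Among 78 cytosolic ribosomal protein genes edgeR called 0, with 2 at an unadjusted p under 0.05; DESeq2 called 1 and limma-voom 0. With edgeR, 4 were lower in the model of the 6 samples alone and 1 with library totals. Their median was -0.12. The ribosome biogenesis count was 11 when estrus 3 was left out and 11 for proestrus 3.

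Chaperones and mitochondrial proteins that accompany growth fell by smaller amounts. Of 26 cytosolic chaperone genes 9 fell (34.6%). Hspa4, a cochaperone of the HSP70 family, was at 202, 215 and 220 CPM in proestrus and 131, 126 and 146 CPM in estrus (log2 fold change -0.66 ± 0.16, adjusted p = 0.0119), a call lost with counts rebuilt from TPM (adjusted p = 0.0721). The mitochondrial chaperonin subunits Hspe1 and Hspd1 fell (-1.05 ± 0.14 and -0.72 ± 0.15, log2), and their levels are uncertain because they share 30.5% with AC117239.2 and 53.1% with Hspd1-ps3. Of 68 respiratory chain genes 15 fell, with a median of -0.26. Cyc1, cytochrome c1 of complex III, was at 156, 176 and 170 CPM in proestrus and 101, 97.8 and 103 CPM in estrus (log2 fold change -0.73 ± 0.12, adjusted p = 0.00187), a fall of 1.66-fold with no overlap. The respiratory chain count was 9 when estrus 3 was left out, 7 for estrus 4, 7 for estrus 5, 5 for proestrus 1, 8 for proestrus 2 and 6 for proestrus 3.

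Genes of cholesterol synthesis were lower in estrus. The pathway builds isoprenoid units from acetyl-CoA and closes them into sterols, and its genes are controlled together by sterol level. Of 24 genes tested 18 fell (75%), the median was -1.43 and 1 had a log2 fold change above 0. The count stayed between 15 and 18 when any 1 of the 6 uteri was left out. Hmgcs1, which makes the precursor of mevalonate (ENSMUSG00000093930, chromosome 13, 119690379 to 119708260), was at 47.3, 63.1 and 69 CPM in proestrus and 26.6, 16 and 18.3 CPM in estrus (log2 fold change -1.57 ± 0.26, adjusted p = 0.00195). Sqle, the squalene epoxidase, was at 18.8, 27.5 and 31 CPM in proestrus and 5.57, 5.72 and 2.75 CPM in estrus (log2 fold change -2.48 ± 0.37, adjusted p = 0.00113). Every estrus uterus lay below every proestrus uterus for both. Cyp51, which demethylates lanosterol, fell from 61 ± 12.4 to 14.4 ± 5.74 CPM (log2 fold change -2.08 ± 0.27, adjusted p = 0.000449), and Stard4, a carrier that moves cholesterol between membranes, from 39.6 ± 8.3 to 10.8 ± 4.17 CPM (log2 fold change -1.86 ± 0.30, adjusted p = 0.00155). Idi1, the isomerase of isoprenoid units, fell 15.6-fold, the largest change of the tested genes of this list (log2 fold change -3.96 ± 0.37, adjusted p = 6.74e-05), and Fdps, the next step, fell 5.21-fold (log2 fold change -2.38 ± 0.28, adjusted p = 0.000327). These 2 share 18.8% with Gm13502 and 27.9% with Gm3571 and are uncertain in level.

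The sterol response element TCACCCCAC, on either strand, is rare in the promoter table: 0.614% of the 27025 genes held it, and 1 of the 17 cholesterol genes with an entry (5.88%). That gene was Hmgcs1, whose promoter at chr13:119690101-119690380, plus strand is shown with the element in capitals as the only pathway member found to hold this exact form.
Hmgcs1: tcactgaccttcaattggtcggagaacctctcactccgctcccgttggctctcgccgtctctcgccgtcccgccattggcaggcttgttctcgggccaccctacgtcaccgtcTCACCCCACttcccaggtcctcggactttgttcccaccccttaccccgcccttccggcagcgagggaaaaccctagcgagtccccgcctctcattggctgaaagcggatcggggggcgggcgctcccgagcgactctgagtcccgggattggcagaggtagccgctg
Over all genes the element was present in 1.2% of those higher in estrus and 0.546% of those lower. Other forms of the element were not searched, so the absence of these letters elsewhere says nothing of the regulator.

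Genes of retinoic acid synthesis and binding fell. Aldh1a2, which makes retinoic acid in the stroma (ENSMUSG00000013584, chromosome 9, 71215789 to 71296243), was at 114, 103 and 111 CPM in proestrus and 17.3, 22.3 and 23.4 CPM in estrus (log2 fold change -2.37 ± 0.27, adjusted p = 0.00026). Crabp1, a cytosolic retinoic acid carrier, was at 30.2, 32.9 and 26.4 CPM in proestrus and 2.47, 2.29 and 3.21 CPM in estrus (log2 fold change -3.44 ± 0.64, adjusted p = 0.00345). Adh1, an alcohol dehydrogenase that can oxidise retinol, fell from 241 ± 57.6 to 98.6 ± 12.1 CPM (log2 fold change -1.29 ± 0.20, adjusted p = 0.00138). Of 21 retinoid genes tested 6 fell (28.6%) and 1 rose, with 4 to 6 falling when 1 uterus was left out.

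Genes of collagen processing and of the matrix moved in both directions. Serpinh1, the collagen chaperone, was at 430, 506 and 584 CPM in proestrus and 238, 179 and 231 CPM in estrus (log2 fold change -1.23 ± 0.22, adjusted p = 0.00271). Plod2, a lysyl hydroxylase of collagen telopeptides, was at 106, 81.9 and 124 CPM in proestrus and 27.8, 28.6 and 29.8 CPM in estrus (log2 fold change -1.85 ± 0.26, adjusted p = 0.000825). Its relative Plod1, which hydroxylates the helix, went the other way with 50.2, 56.6 and 51.8 CPM in proestrus and 127, 105 and 127 CPM in estrus (log2 fold change 1.18 ± 0.16, adjusted p = 0.000547). Eln, elastin, fell from 154 ± 55.9 to 39.6 ± 5.6 CPM (log2 fold change -1.96 ± 0.37, adjusted p = 0.00358), and Mfap5, of microfibrils, from 196 ± 22.2 to 87.4 ± 7.12 CPM (log2 fold change -1.16 ± 0.24, adjusted p = 0.00576). Of 18 tested genes of elastic fibres and cross-linking, 4 fell and 3 rose. The number that fell was 2 when estrus 4 was left out and 2 for estrus 5, and that which rose was 1 when estrus 3 was left out, 1 for estrus 4, 1 for estrus 5 and 1 for proestrus 1. Tgm2, a transglutaminase that cross-links matrix proteins, was one that rose (log2 fold change 1.04 ± 0.12, adjusted p = 0.00025), uncertain in level since it shares 7.48% with Rprd1b. Of 39 collagen and collagen-processing genes 9 fell (23.1%) and 4 rose (10.3%, against 9.67% of all genes), with a median of -0.45. The number that fell was 4 when estrus 3 was left out, 3 for estrus 4, 3 for estrus 5, 3 for proestrus 1 and 3 for proestrus 3, and that which rose was 2 when estrus 4 was left out, 2 for estrus 5, 2 for proestrus 1, 2 for proestrus 2 and 2 for proestrus 3. Among those that rose, Postn, periostin, a matricellular protein of remodelling stroma, was at 61, 77.6 and 120 CPM in proestrus and 307, 311 and 337 CPM in estrus (log2 fold change 1.88 ± 0.28, adjusted p = 0.00106).

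Among the genes that rose were many secreted and inflammatory products. The group plot shows the members of 20 lists side by side.

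**Figure D3:**
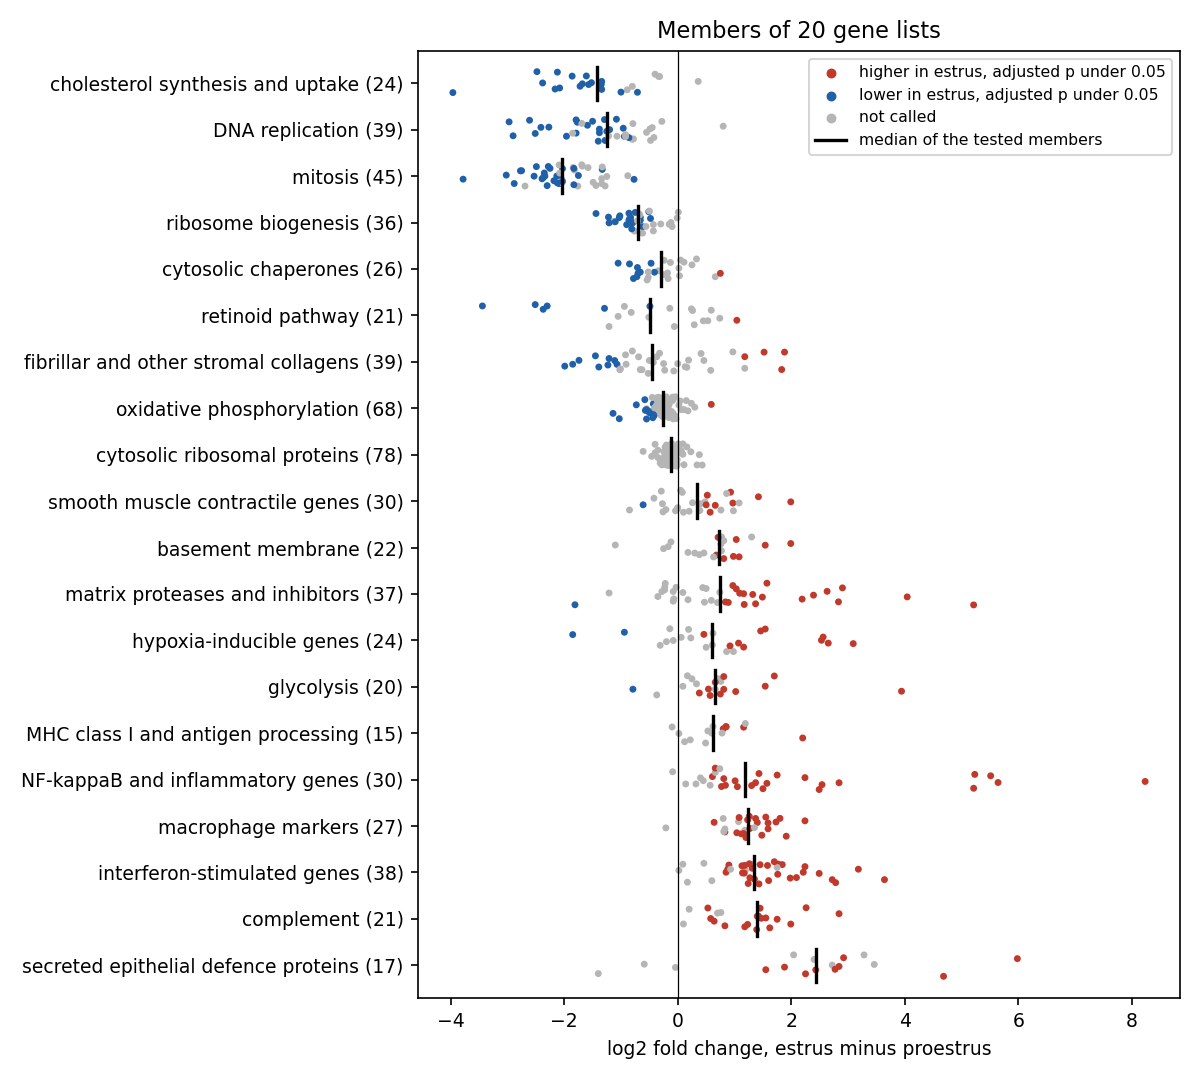
Log2 fold change of each tested member (points, red higher and blue lower at an adjusted p under 0.05, grey not called) in 20 gene lists, with the number tested in parentheses and a bar at the median. Medians run from -2.04 for mitosis to 2.43 for the 17 tested secreted epithelial defence proteins, some of which passed the filter through estrus alone; the point farthest right is Cxcl2, whose fitted value depends on the prior count because all proestrus libraries were at 0.

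NF-kappaB is a transcription factor of inflammation that is held in the cytoplasm until a signal releases it. Of 45 genes of that list 30 were tested, of which 22 rose (73.3%, against 9.67% of all genes), with a median of 1.18 (also with Cxcl2 at its lower bound) and 29 of them above 0. Cxcl2 passed the filter on low counts through its level in estrus. The share describes only members that passed and lends no support to a rise of the list. Ptgs2, the inducible cyclooxygenase of prostaglandin synthesis (ENSMUSG00000032487, chromosome 1, 150100031 to 150108227), was at 0.57, 1.08 and 1.52 CPM in proestrus and 34.6, 65.8 and 27.9 CPM in estrus (log2 fold change 5.23 ± 0.57, adjusted p = 0.00022). It was at or under the floor of 3 counts in each proestrus library and clearly detected in each estrus library. Ier3, an early response survival factor, was at 46.8, 39.9 and 51.8 CPM in proestrus and 165, 267 and 224 CPM in estrus (log2 fold change 2.24 ± 0.21, adjusted p = 6.74e-05). Zc3h12a, a ribonuclease that destroys inflammatory messages, rose from 3.27 ± 1.67 to 23.8 ± 8.46 CPM (log2 fold change 2.84 ± 0.44, adjusted p = 0.00133), and Cd14, the co-receptor for bacterial lipopolysaccharide, from 20.4 ± 2.9 to 119 ± 27 CPM (log2 fold change 2.54 ± 0.24, adjusted p = 6.74e-05). With any 1 of the 6 uteri left out, 15 to 17 genes of the list rose.

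Chemokines that attract neutrophils rose. Cxcl2 was at 0, 0 and 0 CPM in proestrus and 16.7, 30.9 and 13.7 CPM in estrus, which is at least 12-fold higher in estrus when the floor of 3 counts per library is taken for proestrus (adjusted p = 0.000799). Cxcl1, with 1 count over the 3 proestrus libraries, was at 0, 0 and 0.507 CPM in proestrus and 9.28, 21.7 and 5.95 CPM in estrus, a ratio of 66.4 (95% interval 11.5 to 2662, counting error only). Cxcl5 was at 3.42, 0.539 and 0 CPM in proestrus and 32.2, 115 and 34.8 CPM in estrus (log2 fold change 5.51 ± 0.77, adjusted p = 0.000683). Estrus 4 was the highest library for all 3 ligands. Of 20 neutrophil markers only 5 passed the filter on low counts. The 1 that rose was Mmp9, described with the matrix proteases below and no separate result. The sum over the 20 was 15.6 to 41.1 CPM in proestrus and 42.7 to 100 CPM in estrus. Cxcl2 shares 7.59% with Cxcl3, a neighbouring chemokine gene, and its level is uncertain. Cxcl17, a chemokine of mucosal epithelia, rose from 65.3 ± 34.3 to 254 ± 78.4 CPM (log2 fold change 1.96 ± 0.42, adjusted p = 0.00675), and of 27 chemokine and receptor genes tested 9 rose. Cxcl1 and Cxcl2 passed the filter through estrus, so this count lends no support to a rise of the list.

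Promoters of 2 of these genes are shown for the NF-kappaB element, searched as GGGACTTTC, GGGAATTTC and GGAATTTCC on both strands. It was present in 0.984% of all genes of the table, in 9 of the 33 list members with an entry (27.3%) and in 6 of the 15 that rose (40%). Over all genes it was present in 1.97% of those higher in estrus and 0.273% of those lower. The Cxcl2 promoter is chr5:90903649-90903928, plus strand, and that of Ier3 is chr17:35821463-35821742, plus strand, with the element in capitals.
Cxcl2: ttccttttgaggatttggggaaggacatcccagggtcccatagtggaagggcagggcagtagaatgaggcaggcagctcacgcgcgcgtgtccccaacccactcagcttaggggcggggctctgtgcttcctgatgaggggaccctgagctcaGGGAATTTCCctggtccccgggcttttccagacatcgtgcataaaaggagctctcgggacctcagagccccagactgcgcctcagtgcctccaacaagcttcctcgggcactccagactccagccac
Ier3: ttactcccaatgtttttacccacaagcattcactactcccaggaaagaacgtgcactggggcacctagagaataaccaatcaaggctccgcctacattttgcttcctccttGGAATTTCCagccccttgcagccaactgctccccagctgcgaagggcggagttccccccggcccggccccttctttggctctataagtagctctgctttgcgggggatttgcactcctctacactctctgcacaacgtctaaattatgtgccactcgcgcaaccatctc
In Cxcl2 GGGAATTTC and GGAATTTCC overlap in 1 run that begins at -97 relative to the start, and in Ier3 the element begins at -139.

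Many interferon-stimulated genes rose. Interferons bind cell surface receptors and act through transcription factors to raise antiviral and antigen-presenting proteins. Of 43 genes of the list 38 were tested. Of these 29 rose (76.3%), and all 38 had a log2 fold change above 0 (median 1.34). Usp18 passed the filter on low counts through its level in estrus, so this count lends no support to a rise of the list. Gbp2, a guanylate-binding GTPase (ENSMUSG00000028270, chromosome 3, 142620602 to 142638008), was at 24, 37.7 and 22.3 CPM in proestrus and 77.3, 78.9 and 73.3 CPM in estrus (log2 fold change 1.45 ± 0.26, adjusted p = 0.00321). Oasl2 was at 9.7, 17.2 and 12.7 CPM in proestrus and 40.2, 81.8 and 62.7 CPM in estrus (log2 fold change 2.21 ± 0.34, adjusted p = 0.00115), and Usp18, which removes ISG15 and damps the response, was at 1.71, 2.16 and 1.52 CPM in proestrus and 9.9, 13.7 and 12.8 CPM in estrus (log2 fold change 2.72 ± 0.46, adjusted p = 0.00196). For each of these genes the lowest estrus sample was above the highest proestrus sample. Estrus 4 was the highest library for Gbp2, Oasl2 and Usp18, and the number of members that rose was 14 when estrus 4 was left out, 19 for estrus 5, 18 for proestrus 1 and 15 for proestrus 3.

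The interferon element, read as GAAA, then 2 bases, then GAAA on either strand, was chosen after the gene results were seen. It was present in 19 of the 33 list members with a promoter entry (57.6%) and in 12 of the 22 that rose (54.5%), against 3.99% of all genes in the table. Over all genes it was present in 5.58% of those higher in estrus and 3.83% of those lower. Gbp2 is shown at chr3:142620413-142620692, plus strand, where the element begins at -59 relative to the start and lies on the opposite strand.
Gbp2: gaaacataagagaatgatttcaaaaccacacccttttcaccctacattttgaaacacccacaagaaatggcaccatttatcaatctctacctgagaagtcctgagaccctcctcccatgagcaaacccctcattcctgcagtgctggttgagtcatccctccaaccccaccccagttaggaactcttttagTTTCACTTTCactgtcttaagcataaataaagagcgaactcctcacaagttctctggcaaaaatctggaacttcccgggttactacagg

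Part of the genes of antigen presentation rose. B2m, the light chain of class I molecules, was at 303, 370 and 265 CPM in proestrus and 625, 740 and 735 CPM in estrus (log2 fold change 1.16 ± 0.18, adjusted p = 0.00115), and Tapbp, tapasin, which loads them, rose from 122 ± 10.2 to 212 ± 22.8 CPM (log2 fold change 0.80 ± 0.15, adjusted p = 0.00322). Of 15 class I genes tested 5 rose. For class II 4 of 7 rose, but the count was 0 when estrus 4 was left out, 1 for estrus 5, 2 for proestrus 1, 1 for proestrus 2 and 1 for proestrus 3. H2-Ab1, a class II chain, was at 50.8, 51.2 and 33 CPM in proestrus and 68.7, 172 and 76.9 CPM in estrus (log2 fold change 1.24 ± 0.31, adjusted p = 0.0158), with estrus 4 its highest library, and lost its call in the absence of estrus 4 (adjusted p = 0.0769) or of proestrus 3 (adjusted p = 0.0766).

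Macrophage markers were higher in estrus. Of 27 tested 20 rose (74.1%, median 1.23), and the summed level of the 28 genes was 696 to 792 CPM in proestrus and 1644 to 1834 CPM in estrus. Csf1r, the receptor that macrophages need to survive, was at 50.2, 69.5 and 47.7 CPM in proestrus and 124, 163 and 146 CPM in estrus (log2 fold change 1.37 ± 0.18, adjusted p = 0.000543). Cybb, the catalytic subunit of the phagocyte oxidase, was at 14.3, 16.2 and 20.3 CPM in proestrus and 73.6, 86.4 and 81.5 CPM in estrus (log2 fold change 2.24 ± 0.26, adjusted p = 0.000296), and C1qc, a complement chain made by macrophages, was at 28, 35.6 and 35.5 CPM in proestrus and 71.8, 90.9 and 70.5 CPM in estrus (log2 fold change 1.23 ± 0.19, adjusted p = 0.00115). Ptprc, the pan-leukocyte CD45, rose from 17.6 ± 2.06 to 49.2 ± 8.09 CPM (log2 fold change 1.48 ± 0.30, adjusted p = 0.00492). Sums of the stages did not overlap, and the part of this marker rise in the inflammatory, interferon and complement results was not tested. The number that rose was 13 when estrus 4 was left out and 13 for proestrus 1. Csf1r shares 14.9% with Hmgxb3 and is uncertain in level. Of 12 mast cell markers 7 were tested. EdgeR called 0 of the 7 over the 12 samples, with 1 at an unadjusted p under 0.05. DESeq2 and limma-voom called 0, and edgeR on the 6 samples alone called 1 higher. Of 11 eosinophil markers only 2 were tested, and 0 passed by any of these tests, also unadjusted. Both sums were nonetheless higher in every estrus library. Mast cell markers summed to 31.9 to 39.1 CPM in proestrus and 51.5 to 71.9 CPM in estrus. Eosinophil markers summed to 17.8 to 25.9 CPM in proestrus and 29.1 to 29.8 CPM in estrus.

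Complement, an enzyme cascade that tags and lyses microbes, was represented by many genes that rose. Of 21 genes tested 17 rose (81%, median 1.39), and all 21 had a log2 fold change above 0. C4b, an early component, was at 22.2, 19.4 and 16.2 CPM in proestrus and 50.1, 60.6 and 47.2 CPM in estrus (log2 fold change 1.45 ± 0.23, adjusted p = 0.0017). C3ar1, the receptor for the C3a fragment, rose from 12.8 ± 1.85 to 33.6 ± 4.03 CPM (log2 fold change 1.39 ± 0.25, adjusted p = 0.00261). C3, the central component, was at 410, 1203 and 642 CPM in proestrus and 4352, 2689 and 3795 CPM in estrus (log2 fold change 2.26 ± 0.73, adjusted p = 0.0475), and this call was lost without each of the 6 uteri in turn (adjusted p up to 0.157). It was also lost with DESeq2, with counts rebuilt from TPM and with library totals (adjusted p = 0.058, 0.0816 and 0.0544). Without single uteri the number of complement genes that rose was 9 when estrus 4 was left out, 10 for estrus 5, 8 for proestrus 1, 9 for proestrus 2 and 8 for proestrus 3.

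The luminal and glandular epithelium secretes antimicrobial proteins under estradiol, and several genes of secreted defence proteins were higher in estrus. Pigr, which carries antibody across epithelium (ENSMUSG00000026417, chromosome 1, 130826684 to 130852249), was at 129, 178 and 96.9 CPM in proestrus and 854, 846 and 1064 CPM in estrus (log2 fold change 2.77 ± 0.39, adjusted p = 0.00069). Slpi, an antibacterial protease inhibitor, was at 3.99, 1.08 and 6.09 CPM in proestrus and 15.5, 33.2 and 37.1 CPM in estrus (log2 fold change 2.92 ± 0.50, adjusted p = 0.00215). Muc4, a membrane mucin, was at 25.7, 52.8 and 32 CPM in proestrus and 163, 214 and 173 CPM in estrus (log2 fold change 2.31 ± 0.38, adjusted p = 0.00181) and is uncertain in level, since it shares 5.19% with Muc20. Chil1, a chitinase-like protein, was at 3.99, 2.7 and 0.507 CPM in proestrus and 20.4, 343 and 92.5 CPM in estrus (log2 fold change 5.98 ± 0.96, adjusted p = 0.00164), with estrus 4 far above the other libraries and no call by limma-voom (adjusted p = 0.132). Ltf, lactoferrin, and Lcn2, lipocalin 2, both abundant, did not pass the test, with 452, 620 and 254 CPM in proestrus and 2463, 2234 and 4070 CPM in estrus (adjusted p = 0.0502) and 890, 1328 and 853 CPM in proestrus and 3159, 4406 and 5089 CPM in estrus (adjusted p = 0.0772). For both the stages were nonetheless separate, each estrus sample being above each proestrus sample. Cp, ceruloplasmin, a copper carrier, was at 118, 86.3 and 61.4 CPM in proestrus and 466, 434 and 527 CPM in estrus (log2 fold change 2.43 ± 0.30, adjusted p = 0.000368). Of the 37 genes of this list only 17 were tested, and 9 rose. Some, such as Chil1, passed the filter on low counts through their level in estrus, so this count lends no support to a rise of the list. Sprr2d, a small proline-rich envelope protein, was at 1.14, 0.539 and 1.52 CPM in proestrus and 49.5, 84.1 and 27.9 CPM in estrus (log2 fold change 5.55 ± 0.59, adjusted p = 0.000182) but is uncertain in level, since it shares 10.3% with Sprr2e. Sprr2d was also at or under the floor of 3 counts in each proestrus library, so the size of its rise is uncertain. Prom1, the surface protein prominin 1 of epithelial microvilli (ENSMUSG00000029086, chromosome 5, 43993620 to 44102032), shared the smallest adjusted p of all genes with Abi3bp, a matrix protein, and was at 41.6, 30.2 and 26.4 CPM in proestrus and 155, 212 and 211 CPM in estrus (log2 fold change 2.56 ± 0.19, adjusted p = 2.16e-05).

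**Figure D4:**
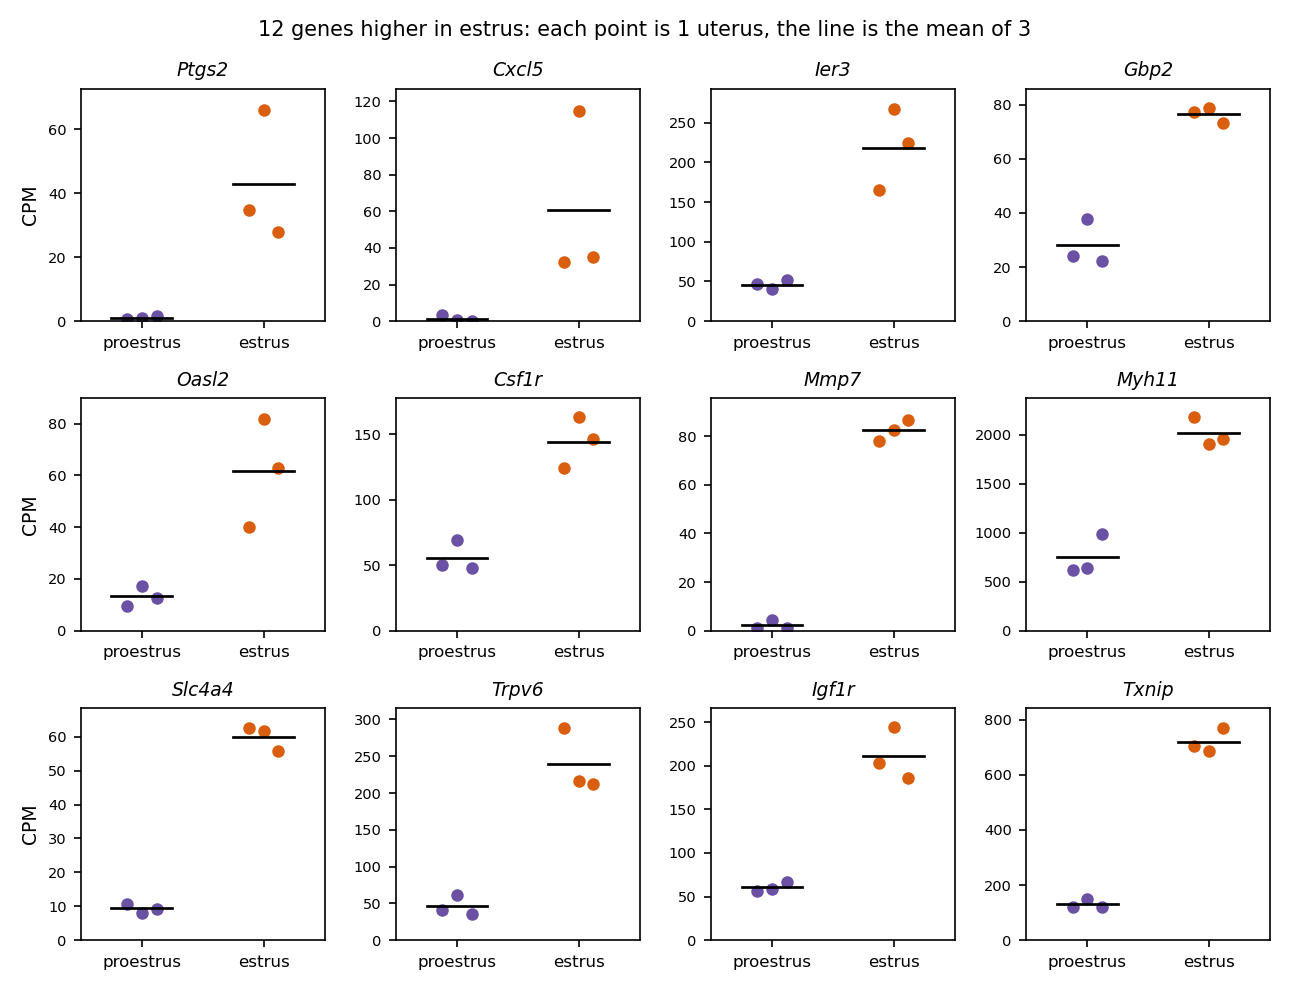
Level in CPM (y axis, linear from 0) of 12 genes in each uterus of the 2 stages (x axis), with a line at the mean of 3. In every panel the 3 estrus points lie above the 3 proestrus points, for example 77.9 to 86.6 CPM against 1.01 to 4.31 CPM for Mmp7, and estrus uteri are spread widely for Cxcl5, from 32.2 to 115 CPM.

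Among matrix proteases and their inhibitors 37 of 45 genes were tested, and 18 of them rose (48.6%, median 0.74). Mmp7, matrilysin, a protease of epithelial cells (ENSMUSG00000018623, chromosome 9, 7692090 to 7699585), was at 1.14, 4.31 and 1.01 CPM in proestrus and 77.9, 82.4 and 86.6 CPM in estrus (log2 fold change 5.21 ± 0.68, adjusted p = 0.000453). The 3 estrus uteri lay close together. Proestrus 1 and proestrus 3 were under the floor of 3 counts, so the size of the rise is uncertain. Mmp9, a gelatinase of leukocytes, was at 1.71, 2.16 and 3.55 CPM in proestrus and 13.6, 14.3 and 12.4 CPM in estrus (log2 fold change 2.39 ± 0.50, adjusted p = 0.00644), and Adamts15, a versican-cleaving protease, was at 2.28, 3.23 and 4.06 CPM in proestrus and 21, 25.7 and 14.2 CPM in estrus (log2 fold change 2.63 ± 0.38, adjusted p = 0.000915). Htra3, a secreted serine protease, rose from 48.2 ± 2.3 to 166 ± 25.5 CPM (log2 fold change 1.79 ± 0.27, adjusted p = 0.00106), and Adamts5, an aggrecanase, from 28.3 ± 4.69 to 72.8 ± 9.78 CPM (log2 fold change 1.37 ± 0.17, adjusted p = 0.000434). Leaving out 1 uterus gave 13 to 16 genes that rose. Some, such as Mmp7 and Mmp9, passed the filter on low counts through their level in estrus, so these counts lend no support to a rise of the list.

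Smooth muscle and basement membrane were represented by part of their genes. Myh11, the heavy chain of smooth muscle myosin (ENSMUSG00000018830, chromosome 16, 14194535 to 14291372), was at 623, 644 and 987 CPM in proestrus and 2179, 1901 and 1959 CPM in estrus (log2 fold change 1.42 ± 0.24, adjusted p = 0.002), and Tagln, transgelin, was at 825, 919 and 1279 CPM in proestrus and 2260, 1922 and 1747 CPM in estrus (log2 fold change 0.97 ± 0.17, adjusted p = 0.00282), although Acta2 did not pass. Lmod1, which nucleates actin filaments of smooth muscle, rose from 136 ± 27.2 to 259 ± 46.3 CPM (log2 fold change 0.93 ± 0.21, adjusted p = 0.00906). Of 30 contractile genes 8 rose and 1 fell, and the number that rose was 3 when estrus 3 was left out, 5 for estrus 4, 4 for estrus 5, 3 for proestrus 1, 4 for proestrus 2 and 5 for proestrus 3. Rgs2, which dampens signalling by contraction receptors, was at 101, 121 and 144 CPM in proestrus and 575, 510 and 440 CPM in estrus (log2 fold change 2.06 ± 0.41, adjusted p = 0.00506). Edn1, endothelin 1, a peptide that contracts muscle, was at 11.4, 12.4 and 22.8 CPM in proestrus and 52.6, 62.9 and 74.2 CPM in estrus (log2 fold change 2.01 ± 0.30, adjusted p = 0.00108). Oxtr, the oxytocin receptor, was at 65.6, 39.4 and 97.9 CPM in proestrus and 25.4, 25.7 and 27.9 CPM in estrus (log2 fold change -1.36 ± 0.33, adjusted p = 0.0135), a call lost in the absence of proestrus 3 (adjusted p = 0.0781). In the basement membrane 8 of 22 genes rose (median 0.73). Lama5, a laminin chain, was at 32.5, 29.6 and 33.5 CPM in proestrus and 50.1, 53.2 and 53.1 CPM in estrus (log2 fold change 0.71 ± 0.15, adjusted p = 0.00731), and Npnt, nephronectin, was at 79.9, 72.2 and 74.6 CPM in proestrus and 160, 173 and 149 CPM in estrus (log2 fold change 1.08 ± 0.14, adjusted p = 0.000434). The basement membrane count was 5 when estrus 4 was left out, 4 for estrus 5 and 4 for proestrus 2.

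Part of the genes of glycolysis and of the response to low oxygen rose, while the message of the factor that controls them fell. Hif1a, the oxygen-regulated subunit of hypoxia-inducible factor, which is controlled mainly through protein stability, was at 202, 177 and 225 CPM in proestrus and 93.4, 111 and 111 CPM in estrus (log2 fold change -0.94 ± 0.14, adjusted p = 0.00108). Known targets of the factor went the other way. Egln3, a prolyl hydroxylase that marks the factor for destruction, was at 11.4, 23.7 and 17.8 CPM in proestrus and 137, 177 and 138 CPM in estrus (log2 fold change 3.09 ± 0.47, adjusted p = 0.00115). Slc2a1, the glucose transporter GLUT1, was at 24.5, 32.3 and 14.2 CPM in proestrus and 56.9, 66.3 and 82.9 CPM in estrus (log2 fold change 1.54 ± 0.35, adjusted p = 0.00955). Hk2, hexokinase 2, was at 31.9, 21 and 28.4 CPM in proestrus and 86.6, 102 and 76.9 CPM in estrus (log2 fold change 1.70 ± 0.21, adjusted p = 0.000364), and Slc16a3, which exports lactate, was at 1.14, 2.16 and 4.57 CPM in proestrus and 39.6, 54.9 and 32.1 CPM in estrus (log2 fold change 3.94 ± 0.56, adjusted p = 0.000824). All of these were separate between the stages. Ero1l, which oxidises disulphide bonds in the endoplasmic reticulum, rose from 18.5 ± 5.98 to 100 ± 18.5 CPM (log2 fold change 2.43 ± 0.22, adjusted p = 6.74e-05). Of 24 hypoxia-inducible genes 10 rose and 2 fell (median 0.61), and of 20 glycolysis genes 11 rose and 1 fell (median 0.66). The glycolysis count was 6 when estrus 4 was left out, 7 for estrus 5, 7 for proestrus 1, 7 for proestrus 2 and 7 for proestrus 3. Txnip, a thioredoxin inhibitor that senses glucose, was at 122, 151 and 121 CPM in proestrus and 703, 685 and 770 CPM in estrus (log2 fold change 2.45 ± 0.27, adjusted p = 0.000227).

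Individual genes of epithelial transport rose. Slc4a4, a bicarbonate cotransporter, was at 10.8, 8.09 and 9.13 CPM in proestrus and 62.5, 61.8 and 55.9 CPM in estrus (log2 fold change 2.67 ± 0.42, adjusted p = 0.00131). Scnn1b, a subunit of the epithelial sodium channel that absorbs luminal fluid, was at 0.57, 0.539 and 1.01 CPM in proestrus and 24.1, 19.4 and 33.9 CPM in estrus (log2 fold change 5.05 ± 0.82, adjusted p = 0.0017). Slc26a4, an anion exchanger, was at 0.57, 1.08 and 1.01 CPM in proestrus and 11.1, 9.15 and 16.9 CPM in estrus (log2 fold change 3.71 ± 0.64, adjusted p = 0.00323). Scnn1b and Slc26a4 lay under the floor of 3 counts in each proestrus library. Of 32 fluid and ion transport genes tested 7 rose (21.9%, against 9.67% of all genes) and 1 fell, while 20 further members were not tested. Scnn1b and Slc26a4 passed the filter on low counts through their level in estrus, so this count lends no support to a rise of the list. The number that rose was 3 when estrus 3 was left out, 3 for estrus 4, 4 for estrus 5, 4 for proestrus 1, 4 for proestrus 2 and 4 for proestrus 3. Calls over all genes were also fewer in these runs (1100 to 1445, both directions), so 9.67% is not their background. Trpv6, the calcium channel of absorbing epithelia, was at 41.1, 61.5 and 36 CPM in proestrus and 288, 216 and 212 CPM in estrus (log2 fold change 2.37 ± 0.33, adjusted p = 0.000646). Vdr, the vitamin D receptor that controls such channels, rose from 1.46 ± 0.714 to 14.5 ± 2.54 CPM (log2 fold change 3.28 ± 0.50, adjusted p = 0.00121). Of 24 calcium genes 5 rose and 1 fell, and the number that rose was 3 when estrus 5 was left out and 3 for proestrus 3, while that which fell was 2 when estrus 4 was left out. Their summed level overlapped between the stages (12291 to 13614 CPM in proestrus and 8880 to 15438 CPM in estrus).

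Polyamines, small cations needed for growth, are made by ornithine decarboxylase and spermidine synthase and removed by acetylation and oxidation. Odc1, the decarboxylase, was at 77.6, 84.6 and 87.3 CPM in proestrus and 46.4, 42.9 and 39.4 CPM in estrus (log2 fold change -0.96 ± 0.18, adjusted p = 0.00417), and Srm, the synthase, was at 58.8, 48.5 and 55.8 CPM in proestrus and 14.8, 21.7 and 10.5 CPM in estrus (log2 fold change -1.80 ± 0.29, adjusted p = 0.0017). Sat1, the acetyltransferase of removal, was at 75.9, 92.2 and 69.5 CPM in proestrus and 271, 317 and 312 CPM in estrus (log2 fold change 1.92 ± 0.24, adjusted p = 0.000445), and Aoc1, a diamine oxidase, was at 15.4, 27 and 14.2 CPM in proestrus and 99, 61.8 and 178 CPM in estrus (log2 fold change 2.59 ± 0.47, adjusted p = 0.00401). All 4 were separate between the stages, but Odc1, Srm and Sat1 share 31.3% with AW146154, 9.41% with Gm5364 and 6.92% with Gm5552, so that those 3 levels are uncertain. These 4 genes belong to a list of 42 tested genes of solute and amine handling, of which 11 rose and 4 fell.

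Signalling and transcription factors of the stroma and epithelium moved in both directions. Rspo3, a secreted amplifier of WNT signals, was at 65, 63.1 and 65 CPM in proestrus and 259, 251 and 213 CPM in estrus (log2 fold change 1.90 ± 0.25, adjusted p = 0.000445), and the WNT antagonists Dkk3, Frzb and Sfrp2 rose too (1.90 ± 0.30, 1.33 ± 0.27 and 1.86 ± 0.33, log2). Of 39 WNT pathway genes 4 rose (10.3%) and 2 fell (5.13%), shares near those of all genes (9.67% and 7.46%). The number that fell was 1 when estrus 3 was left out, 0 for estrus 4, 1 for estrus 5, 0 for proestrus 1 and 1 for proestrus 2. Pdgfra, the platelet-derived growth factor receptor of fibroblasts, was at 55.3, 43.1 and 40.1 CPM in proestrus and 130, 148 and 127 CPM in estrus (log2 fold change 1.55 ± 0.15, adjusted p = 6.74e-05). Sox4, a transcription factor of progenitor cells, was at 292, 374 and 279 CPM in proestrus and 1650, 1956 and 1688 CPM in estrus (log2 fold change 2.49 ± 0.55, adjusted p = 0.00866), to which DESeq2 gave no adjusted p. Klf9, which cooperates with the progesterone receptor, was at 135, 153 and 121 CPM in proestrus and 322, 391 and 330 CPM in estrus (log2 fold change 1.35 ± 0.21, adjusted p = 0.00133), opposite to Pgr. Id1, an inhibitor of differentiation factors that BMP signals induce, was at 63.3, 41.5 and 49.2 CPM in proestrus and 16.1, 17.2 and 21.1 CPM in estrus (log2 fold change -1.49 ± 0.19, adjusted p = 0.000445). Bcl2l11, the death-promoting BIM protein, was at 15.4, 13.5 and 9.13 CPM in proestrus and 45.8, 42.3 and 44.9 CPM in estrus (log2 fold change 1.81 ± 0.31, adjusted p = 0.00207), and Tnfsf10, the death ligand TRAIL, was at 9.7, 11.3 and 11.7 CPM in proestrus and 42.1, 49.2 and 38.9 CPM in estrus (log2 fold change 1.98 ± 0.20, adjusted p = 0.000102). Among 39 apoptosis genes 9 rose, or 5 when proestrus 2 was left out.

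Antioxidant and metal-binding genes were split. Mt1, a metallothionein, was at 86.1, 57.1 and 67.5 CPM in proestrus and 319, 413 and 335 CPM in estrus (log2 fold change 2.34 ± 0.36, adjusted p = 0.00127), and Gpx3, a secreted glutathione peroxidase, was at 72.4, 81.4 and 113 CPM in proestrus and 544, 341 and 387 CPM in estrus (log2 fold change 2.25 ± 0.34, adjusted p = 0.00108). Of 42 genes in this group 9 rose (21.4%) and 3 fell (7.14%, against 7.46% of all genes), with a median of -0.01 and 21 above 0. The number that rose was 5 when estrus 4 was left out, 5 for estrus 5 and 5 for proestrus 3, and the number that fell was 0 when estrus 5 was left out, 1 for proestrus 1, 1 for proestrus 2 and 1 for proestrus 3.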

How the data were processed

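Whole uterus was measured in 12 samples (3 in each of 4 stages) by 3' TagSeq from 100 ng of RNA, with a library size selection of 355 to 550 bp and no molecular identifiers described, so counts may include PCR copies. Per the file headers, the authors deposited 1 table per library with estimated counts and TPM values (scaled for transcript length and library total) for each transcript. The submitters' processing notes name FastQC, kallisto and DESeq2, without roles. The options, transcript set, strand use and genome build are not given in the sources used here.

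Transcript identifiers matched GENCODE M21 (GRCm38) for 97.7% of rows, and estimated counts were summed per gene and rounded. The low-count filter of edgeR 4.0.16 kept 12052 genes, which were fitted with its quasi-likelihood test over all 12 samples with TMM scaling in R 4.3.3. Adjusted p-values are Benjamini-Hochberg values over those genes. Alternatives were DESeq2 1.42.0, limma-voom (limma 3.58.1), other scalings and filters, counts rebuilt from TPM, the 6 samples alone and each sample left out. The scripts were tested on simulated data. Genes named in the text were taken, in each direction, from the 12 called genes with the largest change (at least 10 CPM in the higher stage, separate samples, no shared sequence) and the 12 with the smallest p, from the 6 called members with the smallest p in each list (where fewer than 2 were called, its most abundant members), and from a fixed set of uterine genes such as Pgr, Esr1 and C3. The members and gene lists were chosen with earlier results of these data known. Coordinates are GRCm38. A gene whose transcripts share over 5% of their 31-base words with another gene is called uncertain.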

Additional observations from a re-analysis of the deposited data

How the results depend on the processing

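The main model called 2064 genes. Counts rebuilt from TPM gave 1270 calls, of which 1190 were among the 2064 with the same direction and the rest were not. Leaving out 1 of the 12 samples gave between 1100 calls (without proestrus replicate 3) and 2414 (without metestrus replicate 7), and the counts were also over 1.5 times lower without estrus replicate 4 (1217), proestrus replicate 1 (1227) and estrus replicate 5 (1233). The cause was not tested. Under the other alternatives the count stayed within 1.5 times: 2057 with DESeq2 size factors, 1896 with DESeq2, 2014 with limma-voom, 1875 with library totals, 1457 with a mean of at least 50 counts, 2147 without a filter and 2788 with the 6 samples alone. Of 126 called genes named in the text other than Foxl2, 117 kept their call in every setting that gave one. Among named genes only Epcam, which was not called, changed sign, at -0.02 without the filter on low counts and between -0.12 and 0.16 with single samples left out. No paired analysis was possible because estrus and proestrus share only the replicate number 3. The depth of the libraries and 3 samples a stage limit what can be called: a gene under 3 counts in a library was not measurable there, and an exact permutation test of 3 against 3 samples cannot go below p = 0.1.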

Other observations

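Vessel genes were called no more often than genes in general. Of 37 endothelial and angiogenesis genes tested, 5 rose (13.5%, against 9.67% of all genes and 17.1% called in either direction; median log2 fold change 0.46), and 4 or 5 did so with 1 of the 6 uteri left out. Vegfd, a growth factor of lymphatic vessels, was at 25.7, 27 and 22.3 CPM in proestrus and 54.4, 64.1 and 61.4 CPM in estrus (log2 fold change 1.26 ± 0.21, adjusted p = 0.002). Vegfb, a relative that acts on vessels and fatty acid uptake, was at 17.7, 17.8 and 26.4 CPM in proestrus and 42.7, 49.2 and 56.8 CPM in estrus (log2 fold change 1.26 ± 0.23, adjusted p = 0.00326). The stages did not overlap for either. Of 24 steroid receptor and metabolism genes 3 rose (12.5%) and 5 fell (20.8%), a split group with a median of 0.04. Estrogen-responsive genes were split too: of 28 tested 4 rose (14.3%) and 9 fell (32.1%). With 1 of the 6 uteri left out, 2 or 3 of them rose and 4 to 7 fell. Of 20 progesterone-responsive genes tested 0 rose and 5 fell (25%), or 2 or 3 with 1 of the 6 uteri left out.

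Prostaglandin genes moved in both directions. Of 30 tested 4 rose (13.3%, against 9.67% of all genes) and 4 fell (13.3%, against 7.46%), with a median of 0.09. The number that fell was 2 when estrus 3 was left out, 2 for estrus 4, 2 for estrus 5 and 2 for proestrus 3. Besides Ptgs2, Ptgis, which makes prostacyclin, was at 74.2, 82.5 and 112 CPM in proestrus and 175, 169 and 151 CPM in estrus (log2 fold change 0.88 ± 0.18, adjusted p = 0.00603). Hpgd, which inactivates prostaglandins, was at 36.5, 30.7 and 34 CPM in proestrus and 91.6, 73.2 and 57.2 CPM in estrus (log2 fold change 1.13 ± 0.21, adjusted p = 0.00395). Akr1b3, an aldose reductase that can also form prostaglandin F, was lower in every estrus sample at 103, 91.1 and 90.3 CPM in proestrus and 55.1, 50.9 and 44 CPM in estrus (log2 fold change -0.93 ± 0.17, adjusted p = 0.00355), uncertain in level since it shares 11.3% with Gm6736.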
